A study of Arabidopsis thaliana with 12 samples.

Results

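The steady-state transcript levels of Arabidopsis seedlings treated with 1 mM H2O2 for 4 min were compared with those of seedlings treated with 1 mM H2O2 for 2 min. The question addressed was which transcripts changed between these time points of the early response. The comparison used 6 of the 12 RNA-Seq libraries of the H2O2 experiment, namely the 3 biological replicates labelled 4 min and the 3 labelled 2 min. All were wild-type Col-0 seedlings, 5 days old, grown under constant light in liquid medium with shaking, with about 100 to 150 whole seedlings pooled for each time point and replicate. The other 6 libraries were seedlings given 1 mM H2O2 for 8 min and seedlings given distilled water and sampled at 0 min. Both groups compared had received the same H2O2 treatment, and the time since liquid was added differed between them together with the time of H2O2, so these cannot be told apart. RNA came from whole seedlings, in which more cells expressing a gene and more RNA per cell cannot be told apart.

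H2O2 is a reactive oxygen species (ROS) that plant cells produce at the plasma membrane, in chloroplasts and in mitochondria, and that enters cells from outside through aquaporins. Added H2O2 is known to raise cytosolic calcium and to activate MAP kinase cascades in Arabidopsis. Transcription factors of the ERF, WRKY, MYB and C2H2 zinc finger (ZAT) families are among the genes known to respond early to it, together with calmodulin-like calcium sensors and mitochondrial carriers.

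Between 13558388 and 19811487 reads fell on the listed genes in each of the 6 libraries compared, and the deposited values are reads divided by 1 size factor per library (normalized counts). Log2 values of the replicates had correlations across genes from 0.9908 to 0.9912 at 2 min and from 0.9839 to 0.9908 at 4 min. Of the 20972 genes listed, 19485 had a mean normalized count of at least 10 over the 12 libraries and were tested. Root markers and shoot epidermis and guard cell markers were each detected for 10 of 10 genes. A pair of libraries stood apart for some transcripts. The 7 seed storage transcripts, markers of embryo reserves, summed to between 29234 and 52458 normalized counts at 2 min and between 4819 and 50238 at 4 min, with the lowest sum in replicate 2 at 4 min. FSD1, the iron superoxide dismutase of chloroplasts, was at 90.0 in replicate 2 at 2 min and between 1095 and 2726 in the other 5 libraries.

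The steady-state level of 16 transcripts was significantly enhanced at 4 min compared with 2 min, which is 0.0821% of the transcripts tested, and 0 transcripts were significantly suppressed (limma, Benjamini-Hochberg adjusted p under 0.05). The enhanced transcripts encode the transcription factors ZAT10, ERF104 and ERF5, the deadenylase CAF1A, the calcium-binding proteins CML23 and AT4G27280, the mitochondrial dicarboxylate carrier DIC2, the RING finger protein RDUF1, the nudix hydrolase NUDT21, the glycosyltransferase-like proteins GATL10 and AT5G20260, a TIR domain protein (AT1G72920), a pre-mRNA cleavage complex II protein (AT5G43620), a glycine-rich protein (AT1G07135) and the uncharacterized proteins AT1G35210 and AT3G50800. Their log2 changes were between 0.79 (GATL10) and 2.77 (AT5G20260), with a median of 1.38, and 13 of the 16 changed at least 2-fold. In all 16, each replicate at 4 min was above each replicate at 2 min, a pattern found for 1000 (5.13%) of the transcripts tested, whereas the reverse was found for 798 (4.10%). Without adjustment, p was under 0.05 for 391 transcripts (2.01%) with a higher level at 4 min and for 213 (1.09%) with a lower one. The median log2 change of all transcripts tested was -0.003.

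**Figure D1:**
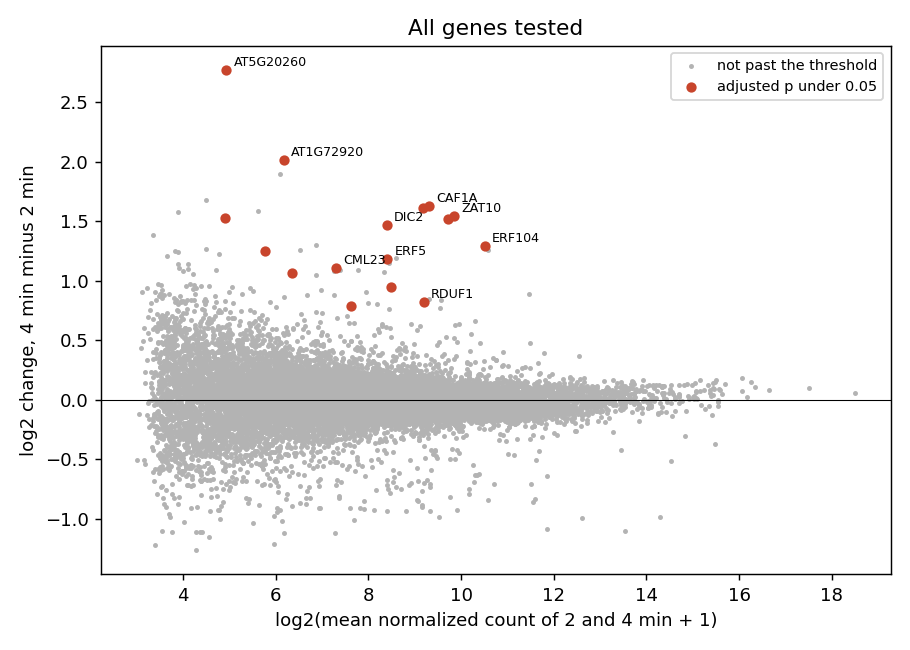
Log2 change from 2 to 4 min of 1 mM H2O2 (vertical axis) against the log2 of the mean normalized count plus 1 (horizontal axis) for the 19485 genes tested, with the 16 transcripts of adjusted p under 0.05 in red and some of them named. All red points lie above 0, from 0.79 to 2.77, and no point below 0 passed the threshold.

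The number of calls depended on single libraries. It fell to 0 when any one of replicate 1 at 4 min, replicate 3 at 4 min, replicate 2 at 2 min or replicate 3 at 2 min was left out, with lowest adjusted p-values (limma) of 0.0741, 0.0561, 0.115 and 0.0756. It was also 0, with a lowest adjusted p of 0.0520, when the fit held only the 6 libraries compared. It was 8 without replicate 1 and 10 without replicate 2 of 0 min, and 19 without replicate 2 at 4 min, the library with few seed storage reads. Replicate 1 was the highest of the 3 libraries at 4 min for 15 of the 16 transcripts and the highest at 2 min for 12. A limma fit with a replicate block called 18 transcripts, 12 of them among the 16, with a lowest adjusted p of 0.00391. The part of replicate 1 in the result was not tested beyond this fit and leaving it out. The log2 change of the 16 transcripts was positive in each of 349 values from the other settings, between 0.69 and 3.20. Leaving out a library could not change this sign, because each replicate at 4 min was above each at 2 min. Leaving out a library of 0 or 8 min, the replicate block and the fit of 6 libraries gave the same estimate as the main fit. DESeq2 on the recovered reads called 39 transcripts (0.200%), the 16 among them, and edgeR called 15 (0.0770%), all among the 16 and without AT3G50800. Both called 0 suppressed transcripts. On simulated reads DESeq2 made 10.7% false calls in this comparison and limma 4.48%, so transcripts that passed in DESeq2 alone are taken as less certain. That simulation changed 200 transcripts 2-fold, up or down, and drew them only from those with a mean of at least 50. The calls here differ from this, so its shares may not carry over.

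**Figure D2:**
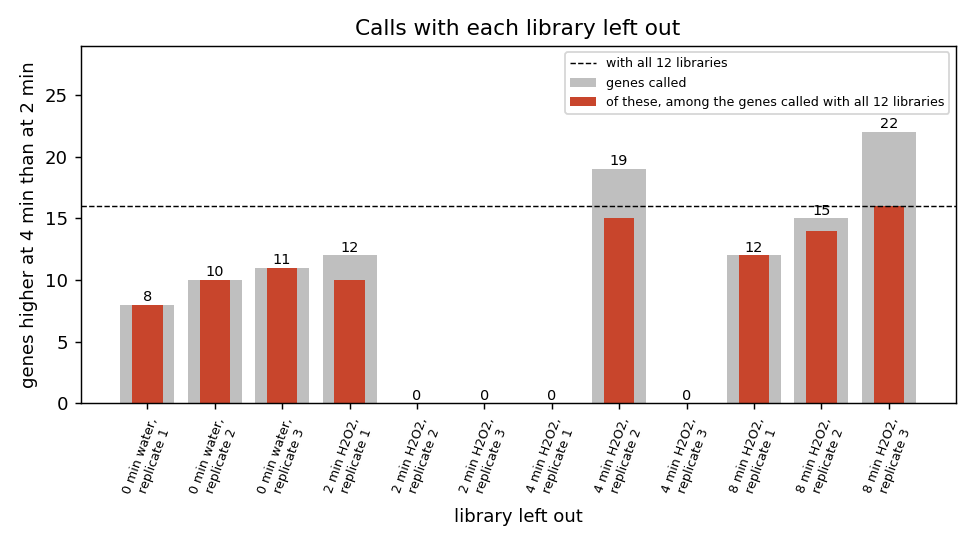
Number of transcripts called higher at 4 min than at 2 min (vertical axis, grey bars with the number above) when the library named below was left out, with the part shared with the 16 calls of all 12 libraries in red. The bars stand at 0 for 4 of the 12 libraries, 2 of each time point compared, and between 8 and 22 for the others, against 16 (dashed line) with all 12.

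The transcription factors were enhanced from an already detectable level. ZAT10 is a C2H2 zinc finger protein, known as salt tolerance zinc finger, that represses transcription. ZAT10 had normalized counts of 630.1, 387.0 and 377.2 in replicates 1, 2 and 3 at 2 min and of 1992, 996.4 and 1159 at 4 min. The 3 values at 4 min were all above those at 2 min, with replicate 1 highest in both groups. Its log2 change was 1.55 with a standard error of 0.24 and an adjusted p of 0.0297 in limma. ERF104, an ethylene response factor that MPK6 is known to phosphorylate, was at 1006, 774.0 and 737.1 at 2 min and at 2702, 1654 and 1900 at 4 min. The groups did not overlap, and ERF104 had the highest level per transcript length of the 16, 1049.6 normalized counts per kilobase over the 12 libraries. The log2 change of ERF104 was 1.29 ± 0.18 (limma standard error, adjusted p = 0.0205). ERF5, a related factor that acts in defence and growth under stress, was at 227.5, 212.2 and 176.4 at 2 min and at 577.2, 376.1 and 465.9 at 4 min. ERF5 thus also stood higher in every replicate at 4 min, with a log2 change of 1.19 ± 0.16 and an adjusted p of 0.0180 in limma.

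CAF1A is a catalytic subunit of the CCR4-NOT complex, which shortens poly(A) tails and so starts mRNA decay. CAF1A was at 355.9, 277.7 and 271.2 at 2 min and at 1276, 691.1 and 909.7 at 4 min. The groups were far apart, with the lowest replicate at 4 min above the highest at 2 min. Its log2 change was 1.63 ± 0.20, and its adjusted p in limma, 0.0115, was the lowest of the comparison together with that of AT5G20260. AT5G43620, which is annotated as a pre-mRNA cleavage complex II protein, was at 46.7, 46.3 and 60.8 at 2 min and at 130.3, 83.6 and 114.5 at 4 min. It changed by 1.07 on the log2 scale (limma adjusted p = 0.0375). AT5G43620 shares 73 of its 1469 stretches of 50 bases with AT1G66500, a gene of the same annotation that was not called (log2 change 0.88, limma adjusted p = 0.11), so reads of these stretches could count for either gene.

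Both calcium-binding proteins that passed the threshold carry EF hands, the loops that bind the ion. CML23, a calmodulin-like protein, was at 109.7, 88.7 and 97.3 at 2 min and at 250.4, 198.2 and 194.6 at 4 min. The lowest value at 4 min was 194.6 and the highest at 2 min 109.7, and the log2 change was 1.11 ± 0.14 (limma adjusted p = 0.0180). AT4G27280, annotated as a calcium-binding EF-hand protein, was at 555.4, 362.6 and 365.1 at 2 min and at 1778, 955.7 and 1029 at 4 min. It was higher in all 3 replicates at 4 min, by 1.52 ± 0.23 on the log2 scale (limma adjusted p = 0.0295).

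DIC2 encodes a carrier of dicarboxylates such as malate in the inner mitochondrial membrane. DIC2 was at 249.7, 145.3 and 142.6 at 2 min and at 650.2, 413.6 and 414.8 at 4 min. Replicate 1 was highest in both groups, and the groups did not overlap. The log2 change was 1.47 ± 0.22, with an adjusted p of 0.0280 in limma. At 8 min DIC2 was at 1189, 1059 and 825.6, all above its values at 4 min.

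The 300 bases before the annotated start were searched on both strands for CGCGTT, the rapid stress response element known from Arabidopsis genes induced within minutes of wounding. It was present for DIC2, CML23 and AT5G43620, 3 of the 16 enhanced transcripts, and for 3.22% of the 19383 tested genes with such a sequence. The start of the element lay 139, 41 and 52 bases before the annotated start of DIC2, CML23 and AT5G43620, respectively. TTGAC, the core of the W box bound by WRKY factors, was present for 11 of the 16 and for 50.5% of the tested genes, in no case overlapping a CGCGTT in the 16. GCCGCC, the GCC box bound by ERF factors, was present for 2 of the 16 (AT1G72920 and ZAT10) against 2.39%, and CACGTG, the G box, for 2 (NUDT21 and AT3G50800) against 8.21%. These matches are a description of the letters in this window. The sequences of the 3 genes with CGCGTT are shown because each belongs to an enhanced transcript. They come from RefSeq's TAIR10.1 assembly, 5′ to 3′ on the strand of the gene, with CGCGTT and TTGAC or their reverse complements (AACGCG and GTCAA) in capitals. That of DIC2 lies at chr4:12686159-12686458 (plus strand), that of CML23 at chr1:24771394-24771693 (minus strand) and that of AT5G43620 at chr5:17522186-17522485 (plus strand).
DIC2: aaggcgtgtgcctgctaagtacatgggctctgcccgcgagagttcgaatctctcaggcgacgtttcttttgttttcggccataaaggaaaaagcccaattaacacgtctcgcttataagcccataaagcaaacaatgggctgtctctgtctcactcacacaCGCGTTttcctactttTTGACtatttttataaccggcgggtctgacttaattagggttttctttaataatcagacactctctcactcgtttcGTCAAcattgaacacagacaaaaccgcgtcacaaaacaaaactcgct
CML23: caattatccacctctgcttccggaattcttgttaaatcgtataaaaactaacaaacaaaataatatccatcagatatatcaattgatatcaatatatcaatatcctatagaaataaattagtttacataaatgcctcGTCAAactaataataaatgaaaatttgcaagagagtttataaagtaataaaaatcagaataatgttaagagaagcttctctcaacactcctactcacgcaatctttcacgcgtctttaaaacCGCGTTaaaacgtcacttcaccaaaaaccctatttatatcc
AT5G43620: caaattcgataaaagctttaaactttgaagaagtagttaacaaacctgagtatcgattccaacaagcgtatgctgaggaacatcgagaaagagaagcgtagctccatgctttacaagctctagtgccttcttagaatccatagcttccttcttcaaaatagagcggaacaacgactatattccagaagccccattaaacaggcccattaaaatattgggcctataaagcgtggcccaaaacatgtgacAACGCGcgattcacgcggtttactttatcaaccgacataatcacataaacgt

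RDUF1, a RING-type ubiquitin ligase known from abscisic acid responses, was at 435.2, 425.6 and 398.1 at 2 min and at 901.7, 696.4 and 657.0 at 4 min. NUDT21, a nudix hydrolase, was at 242.7, 232.7 and 249.5 at 2 min and at 549.1, 441.4 and 420.1 at 4 min. GATL10, a galacturonosyltransferase-like protein of a family linked to cell wall polysaccharides, was at 155.2, 138.9 and 133.8 at 2 min and at 280.7, 214.3 and 251.0 at 4 min. These were the smallest changes called, all under 2-fold, and in each the replicates at 2 min lay close together and below those at 4 min. The log2 changes were 0.83 for RDUF1, 0.95 for NUDT21 and 0.79 for GATL10, with limma adjusted p-values of 0.0295, 0.0217 and 0.0375.

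The largest change was that of AT5G20260, annotated as an exostosin family protein, a glycosyltransferase type. Its normalized counts were 12.8, 5.14 and 4.35 at 2 min and 52.8, 54.6 and 47.6 at 4 min, and between 2.73 and 3.37 at 0 min. The 3 levels at 4 min were close together and all above those at 2 min, which spread more widely, and the log2 change was 2.77 ± 0.32 (limma adjusted p = 0.0115). At 2 min it rested on 4 to 11 reads a library, so the size of the change is known with little precision (95% interval 2.09 to 3.45). AT5G20260 shares 33 of 1426 stretches of 50 bases with the opposite strand of AT5G20250, whose log2 change was -0.05, and whether the reads were counted by strand is not given in the sources used here.

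AT1G72920, a protein with a TIR domain, as found in plant immune receptors, was at 31.5, 21.9 and 26.1 at 2 min and at 172.9, 82.5 and 90.7 at 4 min. The change was 2.02 ± 0.29 (limma adjusted p = 0.0205), with replicate 1 at 4 min standing well above the other replicates. The gene shares 168 of 1168 stretches of 50 bases with AT1G72940, which was not called at a log2 change of 0.65 (limma adjusted p = 0.705). AT1G72910 and AT1G72900, further TIR domain genes of chromosome 1, had log2 changes of 1.90 and 0.81. They passed in DESeq2 (adjusted p = 0.000332 and 0.0453) and not in limma (adjusted p = 0.115 and 0.637).

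AT1G07135, a glycine-rich protein, was at 320.9, 254.6 and 258.1 at 2 min and at 1231, 637.5 and 776.7 at 4 min, a log2 change of 1.61 ± 0.23 (limma adjusted p = 0.0205). AT1G35210, which has no annotated function, was at 12.8, 12.9 and 17.4 at 2 min and at 53.9, 36.4 and 40.5 at 4 min, a change of 1.53 (limma adjusted p = 0.0375). AT3G50800, also uncharacterized, was at 25.7, 33.4 and 33.9 at 2 min and at 93.2, 60.0 and 74.0 at 4 min. In AT1G07135, AT1G35210 and AT3G50800 alike the lowest value at 4 min was above the highest at 2 min. The change of AT3G50800 was 1.25 with an adjusted p of 0.0479 in limma and 0.0607 in edgeR, and the gene shares 77 of 873 stretches with AT3G50790, whose log2 change was -0.002.

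**Figure D3:**
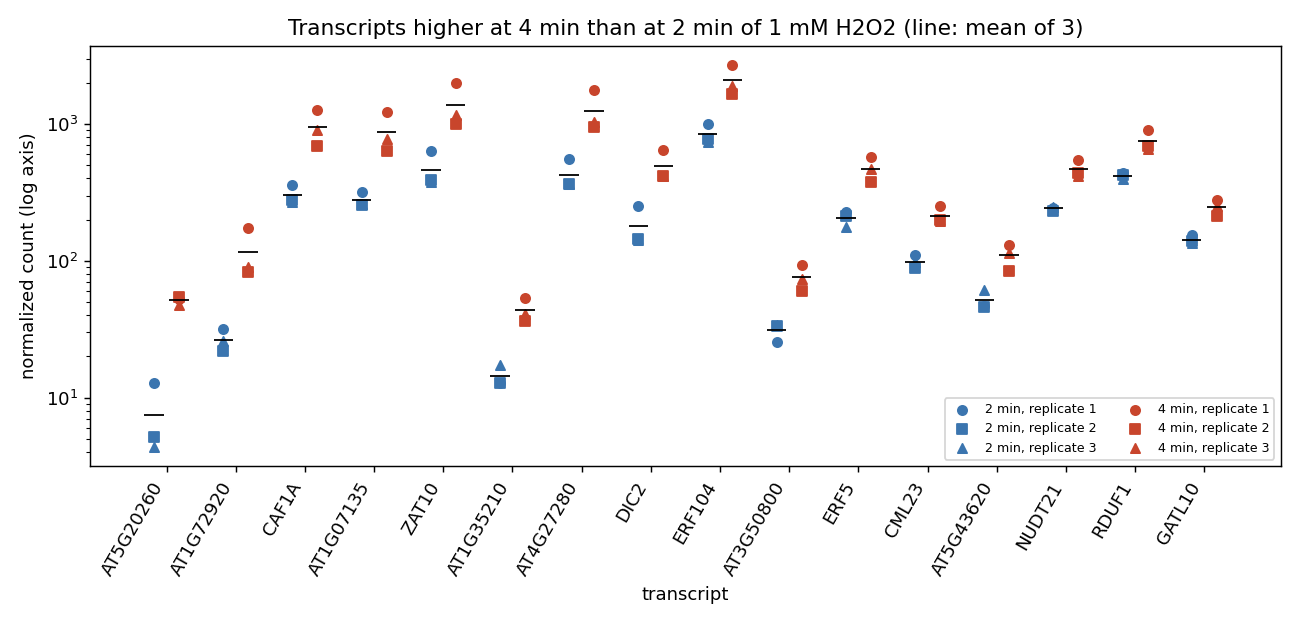
Normalized counts (vertical log axis) of the 16 transcripts called higher at 4 min, ordered by log2 change, in each library at 2 min (blue) and 4 min (red) of 1 mM H2O2, with circles, squares and triangles for replicates 1, 2 and 3 and a line at the mean. The red and blue points do not overlap for any of the 16, and the red circle, replicate 1 at 4 min, is the highest point for 15.

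Most of the enhanced transcripts came from genes with a single exon, a feature that the test did not use. Of the 16, 13 (81.3%) had 1 exon in TAIR10.1, against 15.3% of the tested genes with a gene model. Among the 39 transcripts called by DESeq2, which include these 16, the share was 82.1%. The 16 had a median transcript length of 1260 bases against 1747, and their median GC content was 40.1% against 41.3%. Removing the GC trend of each library left the same 16 genes called.

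At the other time points the 16 transcripts had the following changes in the same fit. These comparisons share libraries with that of 4 min against 2 min, and the genes were chosen for a high level at 4 min or a low level at 2 min, so their values are given side by side only. From 0 to 2 min the median log2 change of the 16 was 0.46, with all above 0, the largest being 1.10 for ZAT10, and 0 of the 16 passed the threshold (0 of all transcripts tested passed it, with a lowest adjusted p of 0.143 in limma and unadjusted p-values under 0.05 for 1239 higher, or 6.36%, and 1107 lower, or 5.68%). From 2 to 4 min the median was 1.38. From 4 to 8 min it was 0.25, from -0.48 for AT3G50800 to 1.07 for DIC2, with 14 above 0 and 0 past the threshold (lowest adjusted p of the 16 in limma 0.248). Relative to 0 min, all 16 were past the threshold at 4 min, where 0.754% of all transcripts were called higher, and 15 were higher at 8 min than at 2 min, where 0.626% were, AT3G50800 being the exception (log2 change 0.77, limma adjusted p = 0.228).

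**Figure D4:**
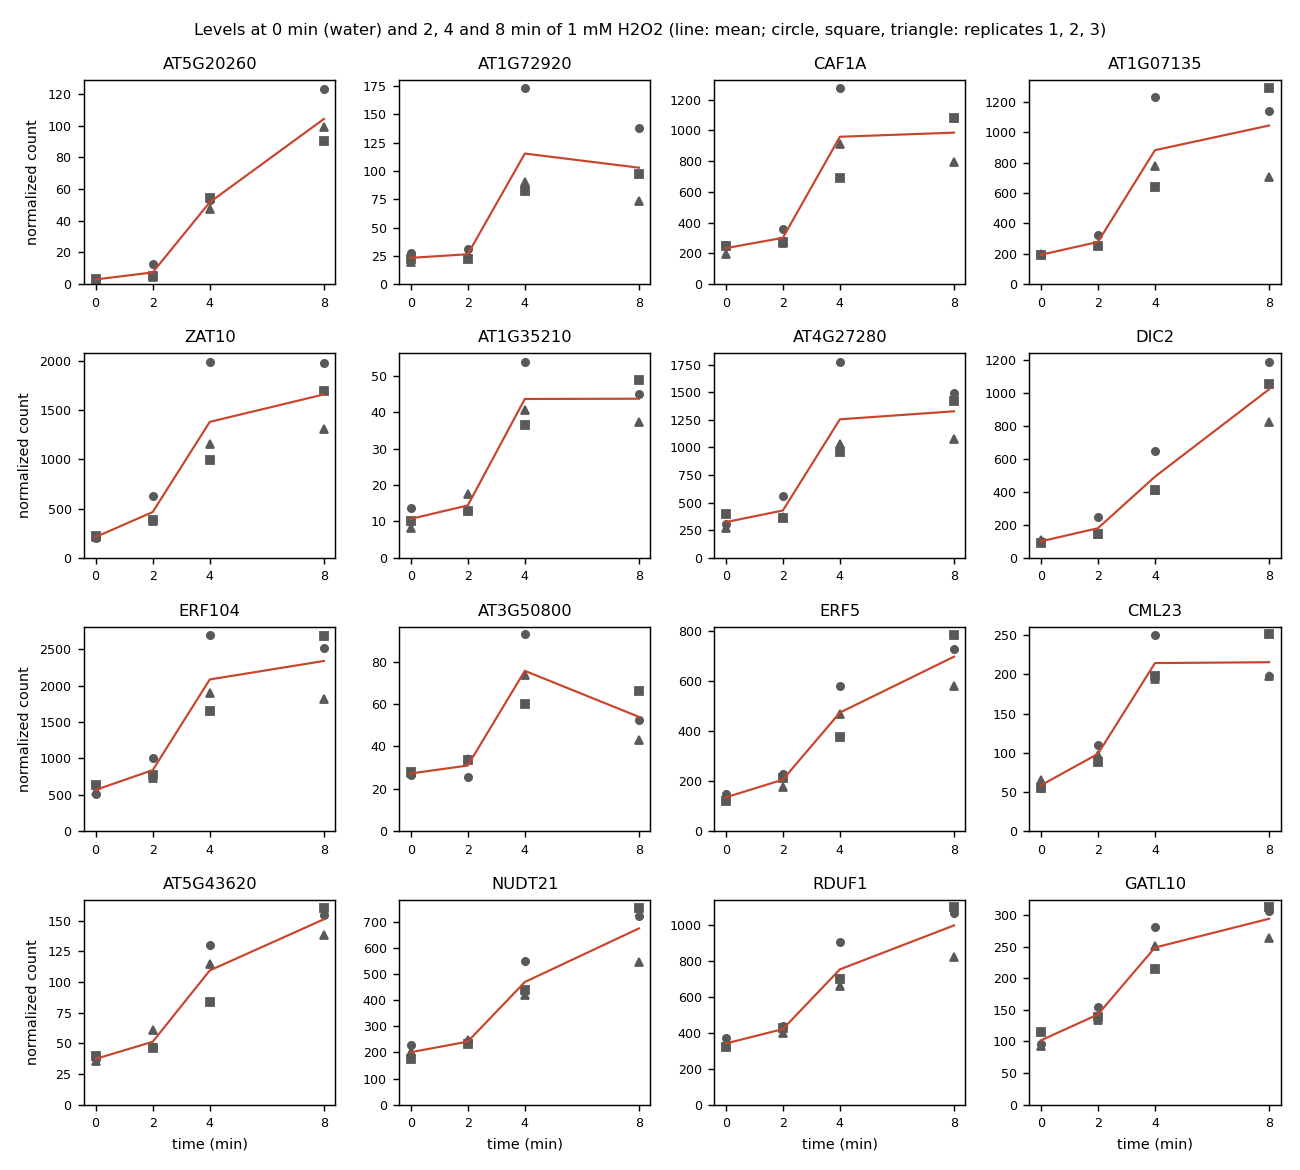
Normalized counts (vertical axes, from 0) of the 16 transcripts by time of 1 mM H2O2 in min, 0 being water (horizontal axes), with circles, squares and triangles for replicates 1, 2 and 3 and a line through the means. For DIC2, AT5G20260, ERF5 and AT5G43620 every replicate at 8 min was above every replicate at 4 min. CAF1A, CML23 and AT1G35210 had means at 4 and 8 min that differed by less than the spread of their replicates.

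Whether the step from 2 to 4 min differed from that from 4 to 8 min was tested as the level at 4 min against the average of 2 and 8 min. A rise that then stays flat also lies above that average. In limma 0 transcripts passed above the average and 0 below it, with a lowest adjusted p of 1.00. At an unadjusted p under 0.05 in limma, 174 (0.893%) were above and 206 (1.06%) below. CAF1A was above the average in DESeq2 on the recovered reads (adjusted p = 0.0240). It was the only transcript to pass there, a test with 13.2% false calls on simulated reads. CAF1A was at 1080, 1081 and 796.2 at 8 min, within the range of its values at 4 min. Its mean was 959 at 4 min and 985 at 8 min, a log2 change of 0.07 (limma unadjusted p = 0.725). Replicates 1 and 3 were higher at 4 min and replicate 2 was higher at 8 min. These values cannot tell a peak at 4 min from a level that stayed flat. Between 4 and 8 min, 0 transcripts passed in limma in either direction (lowest adjusted p 0.0654), with 343 (1.76%) higher and 203 (1.04%) lower at 8 min at an unadjusted p under 0.05.

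The genes of known early responses are described by list, without a test between lists. Over all transcripts tested, 0.0821% were called higher, 48.7% had a log2 change above 0 and 5.13% had all 3 replicates at 4 min above those at 2 min. Of 16 tested ERF and DREB factors, regulators of ethylene and of cold and drought responses, 2 were called (ERF104 and ERF5), 14 had a log2 change above 0 and 11 had all 3 replicates at 4 min above those at 2 min. Their median log2 change was 0.74. ERF6 was at 322.1, 204.4 and 179.1 at 2 min and at 735.5, 433.9 and 442.1 at 4 min, with a log2 change of 1.19 that did not pass in limma (adjusted p = 0.105) and passed in DESeq2 (adjusted p = 0.000104). ERF13 had a log2 change of 1.68 at between 7.82 and 53.9 normalized counts (limma adjusted p = 0.212, DESeq2 adjusted p = 0.0274). ORA59, which joins jasmonate and ethylene signals, had the lowest log2 change of the list, -0.42.

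Of 23 zinc finger and other early factors, 2 were called (CAF1A and ZAT10), 20 were above 0 and 13 did not overlap between the time points, all of these higher at 4 min (all transcripts: 0.0821% called, 48.7% above 0 and 5.13% not overlapping), with a median of 0.32. ZAT12, a zinc finger protein central to ROS responses, was at 267.2, 163.3 and 208.6 at 2 min and at 665.9, 367.5 and 411.3 at 4 min. It stood higher in every replicate at 4 min, with a log2 change of 1.15, an adjusted p of 0.105 in limma and one of 7.77e-05 in DESeq2. MYB77, which acts in auxin responses of roots, was at 204.2, 186.4 and 213.8 at 2 min and at 616.5, 346.1 and 358.4 at 4 min. MYB77 did not overlap between the groups either, and passed in DESeq2 (adjusted p = 7.26e-05) and not in limma (adjusted p = 0.0874, log2 change 1.07). MYB30 had a log2 change of 0.15 and GATA8 one of 0.27, both with limma adjusted p-values of 1.00.

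Of 22 WRKY factors, 0 were called (0.0821% of all transcripts), 15 were above 0 (48.7% of all) and 6 were higher at 4 min with no overlap (5.13% of all). Their median was 0.14, with the highest value for WRKY40 (0.64, limma adjusted p = 1.00). WRKY53 was at 201.9, 160.7 and 140.8 at 2 min and at 210.0, 163.9 and 209.6 at 4 min, so its replicates overlapped. Its log2 change was 0.22 with a 95% interval from -0.28 to 0.72, and that of WRKY48 was 0.18 with an interval from -0.30 to 0.66. Of 10 ubiquitin ligases, 0 were called (0.0821% of all transcripts) and 10 were above 0 (9 with quantile normalization, and 48.7% of all transcripts). In 3 the groups did not overlap (5.13% of all), and the median was 0.31. RDUF1, a RING-type ubiquitin ligase that was called, was not a member of this list. Of 17 kinases and receptors, 0 were called (0.0821% of all transcripts), 10 were above 0 (48.7% of all) and 1 was higher at 4 min with no overlap (5.13% of all). The median was 0.02. MKK9, a MAP kinase kinase, was at 131.9, 150.4 and 130.4 at 2 min and at 370.6, 241.1 and 281.8 at 4 min. MKK9 had the lowest adjusted p in limma of the transcripts that missed the threshold (0.0616, log2 change 1.09) and passed in DESeq2 (adjusted p = 0.000111).

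Of 22 calcium and touch genes, 1 was called (CML23), 19 were above 0 and 6 did not overlap, with a median of 0.17 (all transcripts: 0.0821% called, 48.7% above 0 and 5.13% not overlapping). AT4G27280, the other calcium-binding protein called, was not a member of this list. CML38, a calmodulin-like protein, had a log2 change of 1.30 (limma adjusted p = 0.319, DESeq2 adjusted p = 0.00681) and TCH2, a touch-induced calmodulin-like protein, one of 0.77 (limma adjusted p = 0.228, DESeq2 adjusted p = 0.00355). TCH3 had a log2 change of 0.22 with a 95% interval from -0.14 to 0.57. Of 11 genes of mitochondrial retrograde signalling, 1 was called (DIC2), 7 were above 0 and 3 did not overlap, with a median of 0.13, beside the same shares of all transcripts. DIC1, a carrier of the same family, had a log2 change of 0.60 (limma adjusted p = 0.690). AOX1A, the alternative oxidase that is the usual marker of this pathway, was at 334.9, 347.1 and 295.5 at 2 min and at 342.5, 340.7 and 317.9 at 4 min, with overlapping groups and a 95% interval of its log2 change from -0.24 to 0.32.

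Of 19 tested enzymes that produce and remove ROS, 0 were called, where 0.0821% of all transcripts tested were called higher. In this list 10 were above 0 (48.7% of all transcripts) and 9 were below 0, with a median of 0.005. The number free of overlap was 0, against 5.13% of all transcripts higher and 4.10% lower at 4 min. RBOHD, the NADPH oxidase of the respiratory burst, was at 690.8, 630.0 and 720.5 at 2 min and at 672.6, 646.1 and 691.3 at 4 min. The values at 4 min lay within the range of those at 2 min, and the 95% interval of the log2 change was -0.34 to 0.30. The intervals were -0.38 to 0.39 for the peroxisomal catalase CAT2 and -0.31 to 0.15 for the cytosolic ascorbate peroxidase APX1. FSD1 had the highest log2 change of the list, 1.26, with an interval from -0.60 to 3.12, and it is the gene with the low value in replicate 2 at 2 min.

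The other lists held 0 called members, where 0.0821% of all transcripts tested were called higher. Of all transcripts, 5.13% were free of overlap and higher at 4 min, and 4.10% free of overlap and lower. The medians were -0.01 for 14 heat shock genes, 0.07 for 14 jasmonate genes, 0.01 for 11 circadian clock genes, -0.02 for 9 early auxin genes and -0.01 for 12 reference genes. Free of overlap and higher at 4 min were 2 heat shock, 3 jasmonate, 1 clock, 0 auxin and 0 reference genes. In the same lists, 1 reference gene and 0 others were free of overlap and lower. All 18 photosynthesis genes were above 0, at log2 changes from 0.02 to 0.18 with a median of 0.12, and 0 of them were free of overlap, where 48.7% of all transcripts tested were above 0, and 12 of the 18 were above 0 with quantile normalization. All 10 shoot epidermis and guard cell markers were below 0 (median -0.06, and 1 above 0 with each other scaling), and of the 10 root markers 5 were above 0 (median -0.03). All 7 seed storage markers were below 0, with a median of -0.84 and 1 free of overlap, and the lowest sum was in replicate 2 at 4 min, whose part in the other results was not tested beyond the 19 calls without it. The cruciferin CRA1 was at 22056, 30947 and 17006 at 2 min and at 16665, 2965 and 30131 at 4 min, an overlap of the groups. The small heat shock protein gene HSP17.6A was low in the same library, at 31.1 against 623.2 and 1054 in the other replicates at 4 min.

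**Figure D5:**
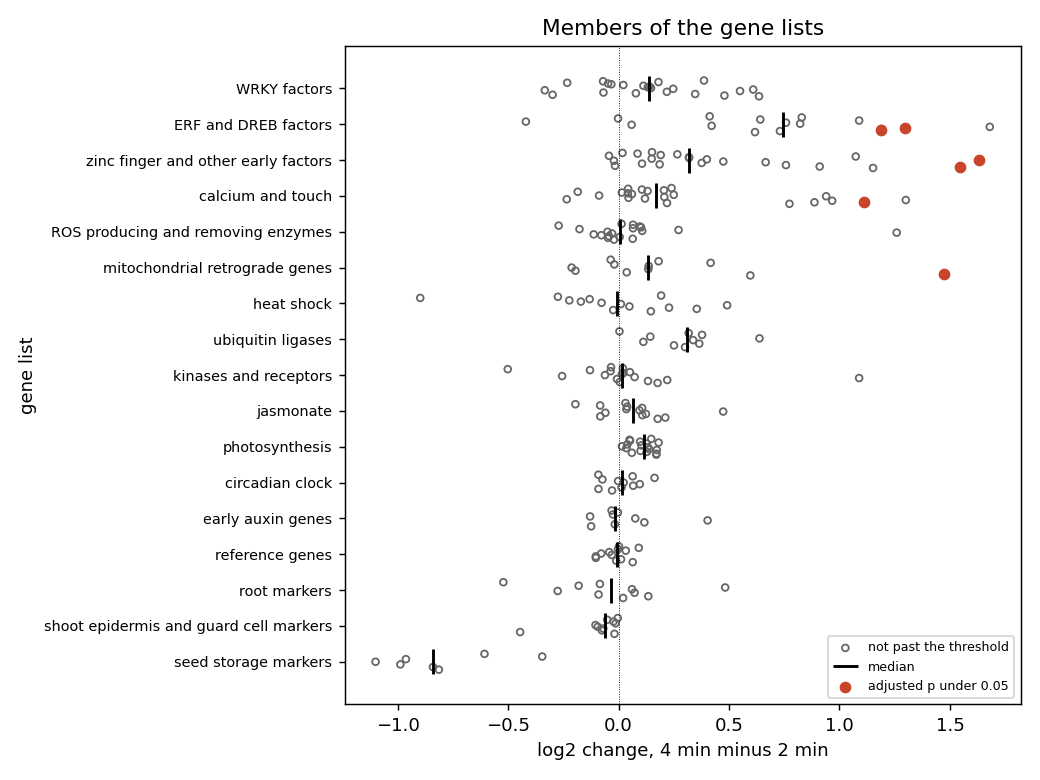
Log2 change from 2 to 4 min of 1 mM H2O2 (horizontal axis) of each tested member of 17 gene lists (rows), with red points for adjusted p under 0.05 and a black line at the list's median. The median is highest for the ERF and DREB factors (0.74) and lowest for the seed storage markers (-0.84), and the 6 red points are in the ERF and DREB, zinc finger, calcium and mitochondrial lists.

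No transcript had a significantly lower level at 4 min than at 2 min, and the lowest adjusted p of a transcript with a negative change was 0.592 in limma. Among the 18 transcripts with a log2 change of -1 or less, against 40 with one of 1 or more, FTM1, a stearoyl-acyl carrier protein desaturase family gene, was at 109.7, 60.4 and 87.8 at 2 min and at 37.1, 42.9 and 28.2 at 4 min. GSTF12, a glutathione transferase of flavonoid transport, was at 19.8, 23.1 and 18.3 at 2 min and at 5.61, 13.9 and 10.6 at 4 min. AAC2, an ADP/ATP carrier of mitochondria, was at 333.7, 333.0 and 334.6 at 2 min and at 229.1, 251.8 and 266.0 at 4 min. None of these passed the threshold. They were picked from the 798 transcripts (4.10%) with all 3 replicates at 4 min below those at 2 min, so their lack of overlap was fixed by the choice. The log2 changes were -1.21, -1.03 and -0.42, with limma adjusted p-values of 0.764, 1.00 and 0.672. HB33, a homeobox protein, had the lowest unadjusted p of the non-overlapping falls (0.00167) at a log2 change of -0.26. Over all transcripts tested the median half-width of the 95% interval of a log2 change was 0.26. For a single transcript, exact permutation of 3 against 3 libraries reaches no two-sided p under 0.1.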

How the data were processed

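RNA-Seq libraries of seedlings were sequenced from a single end. According to the study's methods, reads were checked with FastQC 0.11.7 and aligned to TAIR10 with STAR 2.4.0.1 under default settings, which allow several mapping locations. The counting program is not given in the sources used here. The deposited values are a signal that the authors made by dividing the reads of each gene by 1 DESeq2 (1.20.0) size factor per library (normalized counts). All values (100%) were whole reads times a step, to within 1e-06, so reads were recovered. Each of the 20972 genes listed had reads in every library, and 20858 had a model in TAIR10.1. Totals were 13558388 to 26618274 reads per library (median 16853679). Every pair of replicates differed by more than sampling noise.

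Log2(normalized count + 1) was fitted in limma 3.58.1 with a variance trend over the 12 libraries, for genes with a mean of at least 10, with a threshold of 0.05 after Benjamini-Hochberg adjustment. Fold changes on this scale understate those of low genes. Alternatives were pseudocounts of 0.1 and 5, a filter at a mean of 50 or none, edgeR 4.0.16 and DESeq2 1.42.0 on recovered reads, quantile normalization, a replicate block, only the libraries compared, a GC correction, a log2 change of at least 1 and leaving out each library. The comparisons of other time points from the same fit were added after the data were seen. In a simulation with 19410 genes, 200 with a mean of at least 50 were changed 2-fold between 2 and 4 min. There limma recovered 96.0% with 4.48% false calls, edgeR 96.0% with 4.48% and DESeq2 95.5% with 10.7%. Recovery of genes below that mean was not tested. For the peak at 4 min DESeq2 had 13.2% false calls.

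The comparison, its 17 gene lists and the rule for named genes were chosen with earlier results of these data known. The rule took the 15 largest rises called, 10 falls (filled with uncalled transcripts of lowest p and no overlap), list members called, the 2 of highest level per length in each list, of which the text prints some, and MYB30, GATA8, WRKY48, WRKY53 and DIC2. The 16th call (GATL10) and the other list members named were chosen after their values were seen. Upstream sequences (300 bases) came from RefSeq's TAIR10.1. Shared sequence was counted in stretches of 50 bases. Replicates were repeats of the experiment. R 4.3.3, Python 3.11.15 and matplotlib 3.10.9 were used.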

Additional observations from a re-analysis of the deposited data

How the results depend on the processing

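The 16 enhanced transcripts were 39 with DESeq2 on the recovered reads and 0 in a fit of only the 6 libraries compared. Leaving out 1 library gave 0 to 22, and 8 or 10 without replicate 1 or 2 of 0 min. A level at 4 min above the average of 2 and 8 min was called for 1 transcript by DESeq2 and for 0 by limma. All other counts stayed within 1.5 times, namely 16 at pseudocounts of 0.1 and 5, 16 without a filter, 13 at a mean of at least 50, 14 after quantile normalization, 15 with edgeR, 16 after GC correction and 13 at a log2 change of at least 1. A replicate block gave 18, of which 12 were among the 16. Same-numbered libraries at 2 and 4 min had correlations of their deviations of 0.167, -0.148 and -0.048, and 1 of the 3 correlated best with its own number. With 3 libraries a group, these values cannot decide whether the numbers pair the samples. The transcripts suppressed at 4 min, and those at 4 min below the average of 2 and 8 min, were 0 in every setting run. None of the 16 changed sign in the settings run, which was fixed for leaving out a library, as their groups did not overlap. Of the uncalled transcripts named by rule, 14, at log2 changes from -0.04 to 0.19, changed sign in at least 1 setting. In 119 combinations of a called transcript and a setting the transcript was no longer past the threshold, at a change of the same sign. The cause of these losses was not tested. With quantile normalization 12 of the 18 photosynthesis genes and 9 of the 10 ubiquitin ligases were above 0. AT5G20260, AT1G72920, AT1G35210 and AT3G50800 had the fewest reads, and their changes are the least precise by counting.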
